A study of Mus musculus with 32 samples.

Results

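The genes described here are the SMAD proteins and their repressors, 10 genes selected by symbol from the 17757 genes of the count table. They are the activating SMADs (Smad2, Smad3, Smad1, Smad5 and the shared partner Smad4), the inhibitory SMADs (Smad6 and Smad7), the SKI family repressors (Ski and Skil) and the ubiquitin ligase Smurf2. All 10 were counted in every one of the 32 libraries, from 27 counts in the weakest library of Smad6 to 6067 in the strongest of Smad3.

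TGF-β, activin and BMP ligands bind paired receptor kinases at the cell surface, and the receptors phosphorylate the receptor-activated SMADs. SMAD2 and SMAD3 carry the signal of TGF-β and activin, SMAD1 and SMAD5 that of BMPs, and both pairs enter the nucleus with SMAD4. SMAD6 and SMAD7 are made in response to the signal and hold it back at the receptor, SKI and SKIL (also called SnoN) bind the nuclear SMAD complex and recruit corepressors, and SMURF2 marks SMADs, receptors and SKIL for degradation. In carcinoma cells the pathway is known for driving invasion and matrix production.

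The libraries came from polysome profiling, in which RNA is separated by its load of ribosomes into a polysomal and a sub-polysomal fraction. The cells were 4T1, a line from a mouse mammary carcinoma, kept as spheroids in lung-like medium for 5 days. The 4 conditions were a scramble shRNA with 700 µM added aspartate (ASP shSCR), a scramble shRNA without added aspartate (NoASP shSCR), and aspartate with an shRNA against Grin2d, a subunit of the NMDA receptor (ASP shGRIN2D), or against Dhps, the first enzyme of eIF5A hypusination (ASP shDHPS). Every condition thus carried a lentiviral shRNA, both silenced lines were profiled with aspartate only, and no silenced line was profiled without it. Each condition had 4 pellets and each pellet gave both fractions, and nothing in the labels says how the pellets of a condition differ beyond their number, so p-values measure the spread between these pellets. Library totals were 12870563 to 25639437 counts, with a median of 18168765.

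The profile was that of an epithelial carcinoma. The 6 epithelial markers (Epcam, Cdh1, Krt7, Krt8, Krt18 and Krt19) summed to between 1960 and 8190 CPM (counts scaled to a common library size) in each library. Of 5 leukocyte markers 3 were counted, with a sum of 5.2 to 26.7 CPM, nearly all of it Cd68, while Ptprc did not exceed 0.879 CPM. The only endothelial marker counted of 3, Pecam1, reached 0.658 CPM at most, and Pdgfra, the only one of 4 fibroblast markers counted, had 6.58 to 35.6 CPM.

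One library stood apart. Libraries were placed by 11046 genes on an axis that sets the average sub-polysomal profile at 0 and the average polysomal one at 1. ASP shSCR replicate 1 had its polysomal library at 0.372, while those of the other 15 pellets reached 0.758 to 1.19. Sub-polysomal libraries, 16 in number, ranged from -0.107 to 0.138. Because ASP shSCR is the control of most comparisons, the ratio differences described for members are also given without this pellet. For the ratios of the other pathway genes this was not done.

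The silenced genes were read first. Sub-polysomal Dhps was 9.98, 10.8, 10.2 and 8.96 CPM in ASP shDHPS and 42.9, 33.2, 43.3 and 41.3 CPM in ASP shSCR. The groups did not overlap, and the log2 difference was -2.01 (SE 0.16, edgeR adjusted p = 1.11e-08). Polysomal Dhps was 9.35, 13.3, 11.2 and 8.42 CPM against 18.9, 43.2, 34.7 and 31.3 CPM, again without overlap. The difference was -1.64 (SE 0.23, edgeR adjusted p = 0.0167), a call that was lost when ASP shSCR replicate 2 (adjusted p = 0.0546), ASP shDHPS replicate 1 (adjusted p = 0.0963) or ASP shDHPS replicate 3 (adjusted p = 0.111) was left out. Grin2d, with 21 to 126 counts per library, had a log2 difference of -0.88 (SE 0.29, edgeR adjusted p = 0.232) between ASP shGRIN2D and ASP shSCR below polysomes. In polysomes its difference was -1.14 (SE 0.33, edgeR adjusted p = 0.263). In both fractions its pellets did not overlap with those of ASP shSCR, but neither difference passed the threshold of 0.05.

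Before the values, a sequence feature that bears on these genes is shown. SMURF ligases and their relatives use WW domains to hold a proline-tyrosine (PY) motif in the linker of SMADs, and eIF5A that carries hypusine is known to help ribosomes through runs of proline codons, so the coding sequences were searched for both. A run was at least 3 CCN codons in a row, in frame, and PY codons were CCN, CCN, any codon, then TAT or TAC; a site can count as both. The coding sequences of Smad1, Smad2, Smad3, Smad5, Smad6 and Smad7 each held a place where a CCN run led into PY codons, Ski held 3 CCN runs and no PY codons, and Smad4, Skil and Smurf2 held neither. Of 13310 coding sequences with a principal transcript, 24.0% held such a run and 6.8% held PY codons. The sites of 4 of these 6 SMADs, 3 activating and 1 inhibitory, and the longest run of Ski are printed so that the motif can be compared between members, and those of Smad2 and Smad7 are not printed, with the run through the PY codons in capitals and 3 codons on either side, 5′ to 3′ on the coding strand.
Smad1: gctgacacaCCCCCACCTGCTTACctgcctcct
Smad3: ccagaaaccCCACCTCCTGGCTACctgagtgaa
Smad5: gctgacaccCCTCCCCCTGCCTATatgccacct
Smad6: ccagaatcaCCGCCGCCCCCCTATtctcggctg
Ski, longest run: gccatccagCCGCCGCCGCCCgtgcttccc

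The capitals of each printed SMAD site lie within 1 exon, close behind an exon junction that falls in the flanking bases. Positions are those of the GRCm38 build (GENCODE M21 annotation, while the counts were made on GRCm39), and each range covers the printed bases of that exon, flanks included. Codons 223 to 227 of Smad1 lie in exon 4 (chr8:79353415-79353446, minus strand), and codons 180 to 184 of Smad3 in exon 4 (chr9:63666194-63666222, minus strand). Codons 222 to 226 of Smad5 lie in exon 4 (chr13:56728510-56728541, plus strand) and codons 276 to 280 of Smad6 in exon 2 (chr9:64012243-64012271, minus strand). Smad6 held a second PY site at codons 432 to 435 (chr9:63953698-63953727 in exon 4, with its flanks). The run of Ski, codons 81 to 84, lies in exon 1 (chr4:155222260-155222289 with its flanks, minus strand). A match is a description of the sequence only.

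Levels between genes were compared per kilobase of the principal transcript. Smad3 was the most abundant, with 44.3 ± 8.21 CPM per kb (SD, n = 16 libraries of all conditions) in the sub-polysomal and 32.7 ± 6.93 in the polysomal fraction, above the next gene in 16 of 16 libraries of either fraction. Smurf2 (29.6 ± 4.26), Smad4 (23.7 ± 3.76) and Ski (16.2 ± 3.62) followed in the sub-polysomal fraction. Smad5 (14 ± 2.13) and Smad1 (13.1 ± 2.42) lay within each other's spread, as did Smad7 (5.92 ± 0.986) and Smad2 (5.43 ± 0.88), with Skil (8.2 ± 1.49) between the pairs. Smad6 was the lowest, with 1.48 ± 0.37 CPM per kb, below every other member in 16 of 16 libraries.

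Among polysomal libraries the order changed little. Smurf2 (16.5 ± 3.16), Smad4 (14.6 ± 2.52) and Ski (14.5 ± 4.05) were not separable, with Smad4 above Ski in 8 of 16 libraries. Over the libraries of all conditions, Skil, at 9.35 ± 2.98 CPM per kb, was the only member with a higher mean in the polysomal than in the sub-polysomal fraction. In ASP shDHPS alone, Skil was lower in polysomes (41.1 against 53.2 CPM) and Smad6 was higher (3.69 against 3.49 CPM). In ASP shSCR, Smad2 was also higher in polysomes (41.1 against 38.5 CPM). The place of Smurf2 depends on its transcript: with the longest coding transcript in place of the principal one it ranked 3 instead of 2 in the sub-polysomal and 5 instead of 2 in the polysomal fraction.

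**Figure D1:**
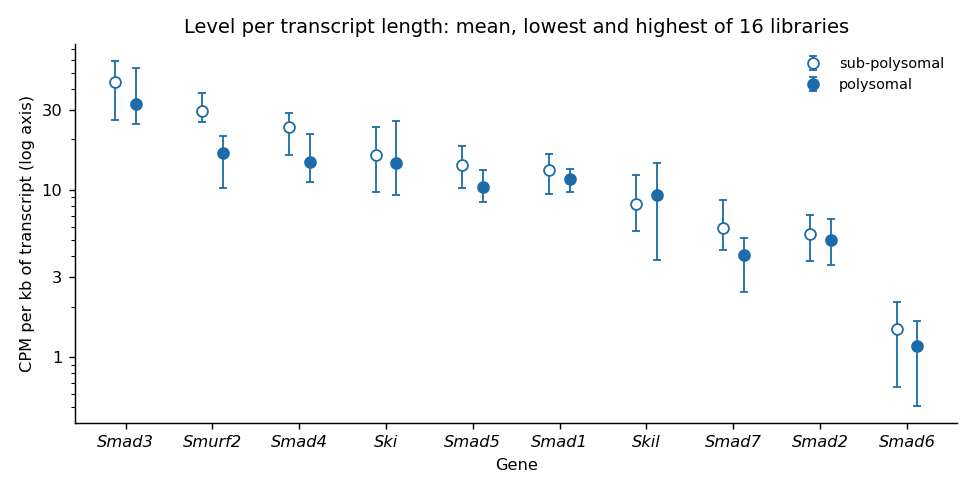
Level of each member per kilobase of its principal transcript (CPM per kb, log axis) in the sub-polysomal (open) and polysomal (filled) fraction. Points are means and bars run from the lowest to the highest of 16 libraries. Smad3 lies highest and Smad6 lowest in both fractions.

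The first question is where the RNA of each member lay within a condition. The measure is the log2 ratio of a pellet, polysomal over sub-polysomal CPM, on a scale where libraries of both fractions were brought to a common size, so that a ratio of 0 marks RNA shared between the fractions as the bulk of genes is, not equal amounts. In ASP shSCR, 4 members were lower in polysomes (Smad3, Smad4, Smad7 and Smurf2) and 1 was higher (Skil). Of all genes, 18.9% were called below 0 and 20.8% above 0 in that condition. The median member ratio was -0.37, against -0.04 over all genes tested.

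Skil had the highest ratio of the members in ASP shSCR, with log2 ratios of 0.65, 0.57, 0.38 and 0.71 in the 4 pellets (mean ratio 0.58, SE 0.17, edgeR adjusted p = 0.00667). All 4 pellets lay above 0, and 71.8% of genes had a lower ratio. Without replicate 1, the pellet that stood apart, the ratio was 0.49 (edgeR adjusted p = 0.0359).

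Smad7, which blocks the activated receptor, had the lowest ratio there, with -0.78, -1.2, -0.46 and -0.41 (mean -0.71, SE 0.19, edgeR adjusted p = 0.00297). Every pellet lay below 0, and the same was true in the other 3 conditions. Smad3 had ratios of -0.7, -0.45, -0.34 and -0.48 (mean -0.49, SE 0.17, edgeR adjusted p = 0.0252). Its 4 sub-polysomal libraries, at 244, 230, 220 and 219 CPM, were all above the polysomal ones, at 150, 169, 174 and 157 CPM. The common partner Smad4 stood at -0.6 (SE 0.18, edgeR adjusted p = 0.0102) and Smurf2 at -0.54 (SE 0.19, edgeR adjusted p = 0.0248). The calls of Smad3 (adjusted p = 0.0704), Smad4 (adjusted p = 0.0508) and Smurf2 (adjusted p = 0.0756) were lost without replicate 4, and that of Smurf2 also without replicate 3 (adjusted p = 0.155). Without replicate 1 the same 5 members were called, with edgeR adjusted p of 0.00446 to 0.0408.

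The members without a call in ASP shSCR had wider or more central ratios. Over all 16 pellets, Smad2 ran from -0.62 to 0.39 and Smad1 from -0.76 to 0.28, each below 0 in 11 pellets. Smad5 ran from -1 to 0.13 and was below 0 in 14 pellets, and Ski ran from -0.73 to 0.43 and was below 0 in 10. Smad6, the least counted, had the widest range, from -1.61 to 0.45, and a ratio of -0.67 in ASP shSCR (edgeR adjusted p = 0.0535). It passed the threshold without replicate 4 (-0.92, edgeR adjusted p = 0.0232) and with DESeq2 (-0.75, adjusted p = 0.0188), and stood at -0.42 (edgeR adjusted p = 0.261) without replicate 1.

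In the other conditions Smad4 and Smurf2 were again among the members below 0. In NoASP shSCR, 3 members were below 0 (Smad5 -0.47, Smad4 -0.61 and Smurf2 -0.72), against 20.6% of all genes, and none was above 0, against 23.7%. In ASP shGRIN2D, 4 were below 0 (Smad3 -0.47, Smad7 -0.6, Smad4 -0.72 and Smurf2 -0.95), against 20.4%, and none above, against 23%. In ASP shDHPS, 6 were below 0 (Skil -0.43, Smad3 -0.44, Smad7 -0.47, Smad5 -0.69, Smad4 -0.84 and Smurf2 -1.2), against 21.3%, and none above, against 21.8%. Smad4 and Smurf2 were called below 0 in all 4 conditions, as were 14.2% of all genes. The ratios of Smad4, Smad7 and Smurf2 were below 0 in 16 of 16 pellets each, as were those of 11.5% of all genes. These ratios were not extreme, since 28.8 to 33.3% of all genes had a lower ratio than Smad4 over the 4 conditions, 21.4 to 34.8% a lower one than Smurf2, and 30.3 to 39.1% a lower one than Smad7.

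Several of these calls were lost when a single pellet was left out. In NoASP shSCR, Smad5 lost its call without replicate 1 (adjusted p = 0.127), 2 (adjusted p = 0.0656) or 4 (adjusted p = 0.156) and Smad4 without replicate 4 (ratio -0.39, adjusted p = 0.135). In ASP shGRIN2D, Smad3 lost its call without replicate 3 (adjusted p = 0.142) or 4 (adjusted p = 0.151) and Smad7 without replicate 2 (adjusted p = 0.0735). In ASP shDHPS, Smad3 (adjusted p = 0.0964, 0.116 and 0.138) and Smad7 (adjusted p = 0.0604, 0.121 and 0.281) lost theirs without replicate 2, 3 or 4, and Skil without replicate 1 (adjusted p = 0.158) or 3 (ratio -0.26, adjusted p = 0.298). The ratio of Smad7 was -0.3 without replicate 4, while that of Smad3 stayed between -0.39 and -0.45 over these 3. Those of Smurf2 in these 3 conditions, and of Smad4 in ASP shGRIN2D and ASP shDHPS, were kept by every pellet left out, as tested with edgeR. So was the call of Smad5 in ASP shDHPS (edgeR adjusted p of 0.0198 at most).

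**Figure D2:**
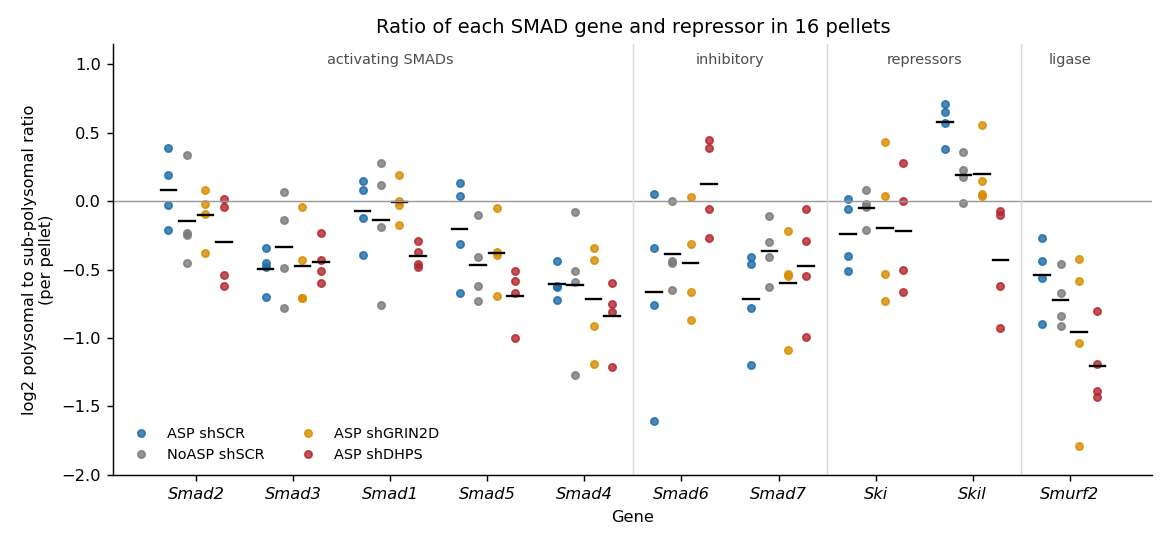
Log2 ratio, polysomal over sub-polysomal, of each member (y axis) in each pellet, coloured by condition, with 4 pellets per condition and the mean as a bar. Skil lies above 0 in all 4 ASP shSCR pellets and below 0 in all 4 ASP shDHPS pellets, and Smad4, Smad7 and Smurf2 lie below 0 in every pellet.

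The second question is whether the position changed when aspartate was withheld or a gene was silenced. These 3 comparisons share the ASP shSCR pellets and are not independent of each other. Without added aspartate, no member passed the threshold by edgeR (0 of 10, and 0% of all genes), none had an unadjusted p under 0.05, against 1.93% of all genes, and DESeq2 called none either. The differences, ASP shSCR minus NoASP shSCR, ran from -0.35 for Smad7 (SE 0.26, 95% interval -0.89 to 0.19) to 0.38 for Skil (SE 0.24, 95% interval -0.1 to 0.87, edgeR adjusted p = 1). Without ASP shSCR replicate 1 they were -0.35 and 0.34, and without ASP shSCR replicate 2 that of Smad7 was -0.19. Skil ratios were -0.01, 0.23, 0.18 and 0.36 in NoASP shSCR, all below the lowest ASP shSCR pellet at 0.38. Skil was the only member without overlap, as were 1.76% of all genes.

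With Grin2d silenced, 0 of 10 members and 0% of all genes passed by edgeR, none had an unadjusted p under 0.05, against 3.22% of all genes, and DESeq2 called none. The differences ran from -0.21 for Smad6 (SE 0.38) to 0.41 for Smurf2 (SE 0.27, 95% interval -0.15 to 0.97). That of Smurf2 was 0.14 without ASP shGRIN2D replicate 4, whose polysomal library held 32 CPM while the other 3 held 61.8, 61 and 57.2 CPM. Skil ratios were 0.56, 0.15, 0.05 and 0.04, with a difference of 0.38 (SE 0.24, 95% interval -0.11 to 0.86), and its pellets overlapped with those of ASP shSCR. Without ASP shSCR replicate 1 the differences were 0.06 for Smad6, 0.34 for Smurf2 and 0.32 for Skil. That of Smad6 also ranged down to -0.46, without ASP shSCR replicate 4.

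With Dhps silenced, the difference of Skil was the largest of the members. Its ratios were -0.62, -0.1, -0.93 and -0.07 in ASP shDHPS, against 0.65, 0.57, 0.38 and 0.71 in ASP shSCR. The groups did not overlap and lay on either side of 0, with -0.1 and -0.07 close to it. Of all genes, 6.86% had pellets that did not overlap between these conditions, and Skil was the only member. The log2 difference was 1 (SE 0.24, 95% interval 0.52 to 1.49), a 2.01-fold higher ratio in ASP shSCR, with an unadjusted p of 0.000253 that ranked 79 of 17757 genes. The edgeR adjusted p was 0.0568, just outside the threshold, and 0.208% of all genes (37) passed it.

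The call on Skil depended on the test. It also changed with a replicate block, for which the labels give no basis, as described under the processing. DESeq2 gave a difference of 0.96 (SE 0.22, DESeq2 adjusted p = 0.00305), and edgeR with a minimum of 10 counts per library for each gene gave 1.04 (edgeR adjusted p = 0.0219). Without ASP shSCR replicate 1 the difference was 0.94 (edgeR adjusted p = 0.0836), without ASP shDHPS replicate 2 it was 1.12 (adjusted p = 0.049), and without ASP shDHPS replicate 3 it was 0.84 (adjusted p = 0.246). Against ASP shGRIN2D, ASP shDHPS minus ASP shGRIN2D was -0.63 (SE 0.24, edgeR adjusted p = 0.578), with 0.00563% of all genes (1) and 0 of 10 members called. In that comparison Skil was the only member with an unadjusted p under 0.05 by edgeR, against 6.41% of all genes, and DESeq2 called no member. The pellets of ASP shDHPS and ASP shGRIN2D did not overlap for Skil and Smad1 (difference -0.4, SE 0.24), nor for 4.52% of all genes.

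Skil lies on chromosome 3 of GRCm38 (31095058 to 31122577, plus strand). The differences of its level in either fraction did not pass the threshold in the main edgeR fit. With a replicate block, for which the labels give no basis, the polysomal difference of ASP shDHPS did, as described under the processing. Polysomal Skil was 63.9, 95.6, 65.9 and 91.2 CPM in ASP shSCR and 35.6, 49.3, 25.6 and 53.8 CPM in ASP shDHPS. Every pellet of ASP shDHPS lay below every one of ASP shSCR, which no other member showed and 5.25% of all genes did in either direction, with a log2 difference of -1 (SE 0.23, edgeR adjusted p = 0.0807, DESeq2 adjusted p = 0.00742). Sub-polysomal Skil was 40.7, 64.6, 50.5 and 55.9 CPM in ASP shSCR and 54.7, 52.7, 48.9 and 56.6 CPM in ASP shDHPS, which overlapped, with a difference of 0 (SE 0.17, 95% interval -0.35 to 0.35). In ASP shGRIN2D polysomal Skil was 56.3, 63.5, 57.6 and 52.1 CPM, also below every ASP shSCR library (as the only member, against 2.6% of all genes without overlap), with a difference of -0.53 (SE 0.23, edgeR adjusted p = 0.482). Without ASP shSCR replicate 1 the polysomal difference of ASP shDHPS was -1.02 (edgeR adjusted p = 0.0606) and without ASP shSCR replicate 3 it was -1.09 (adjusted p = 0.0434). Without ASP shDHPS replicate 3 it was -0.78, and over the pellets left out the edgeR adjusted p ranged up to 0.325.

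Smurf2 had the next highest difference in estimate but did not pass the threshold. Its ratios were -0.44, -0.27, -0.9 and -0.56 in ASP shSCR and -1.39, -0.8, -1.19 and -1.43 in ASP shDHPS. The groups overlapped at a single pair of pellets, and the difference was 0.66 (SE 0.27, 95% interval 0.1 to 1.22, edgeR adjusted p = 0.27), or 0.59 without ASP shSCR replicate 1. Polysomal Smurf2 was 59.3, 65.7, 48.8 and 57.4 CPM in ASP shSCR and 44.6, 50.4, 36.2 and 39.7 CPM in ASP shDHPS, a difference of -0.5 (SE 0.21, edgeR adjusted p = 0.246). Skil and Smurf2 were the 2 members with an unadjusted p under 0.05 in the ratio comparison, against 13.6% of all genes.

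No activating SMAD passed the threshold in this comparison. Smad5 had a difference of 0.49 (SE 0.24, 95% interval -0.01 to 0.99, edgeR adjusted p = 0.382), Smad2 of 0.39 (SE 0.24, edgeR adjusted p = 0.494), Smad1 of 0.33 (SE 0.24, edgeR adjusted p = 0.565) and Smad4 of 0.24 (SE 0.26, edgeR adjusted p = 0.735). Without ASP shSCR replicate 1 they were 0.61, 0.25, 0.4 and 0.21, and without ASP shDHPS replicate 4 that of Smad4 was 0.12. For Smad3, the ratios in ASP shDHPS were -0.23, -0.43, -0.51 and -0.6, and 3 of these 4 lay within the range of ASP shSCR. The difference was -0.05 (SE 0.25), and its 95% interval, -0.55 to 0.46, does not exclude changes of that size in either direction, with -0.01 without ASP shSCR replicate 1.

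The remaining members had differences at or below 0. Ski, the namesake of the repressor family, gave -0.02 (SE 0.27, 95% interval -0.58 to 0.53) and Smad7 gave -0.24 (SE 0.26, edgeR adjusted p = 0.737), or 0 and -0.26 without ASP shSCR replicate 1. That of Smad7 was -0.1 when ASP shSCR replicate 2 was left out, and leaving out ASP shDHPS replicate 1 or 4 gave -0.11 or -0.41. Smad6, with 27 to 115 counts per library, had ratios of -1.61, -0.76, -0.34 and 0.05 in ASP shSCR and 0.39, -0.27, -0.06 and 0.45 in ASP shDHPS. The groups overlapped, and the difference was -0.79 (SE 0.38, edgeR adjusted p = 0.367), or -0.52 without ASP shSCR replicate 1, which held 27 polysomal counts. Over the 10 members the median difference was 0.29, against 0.01 over all genes tested, with 6 members above 0 and 4 below.

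**Figure D3:**
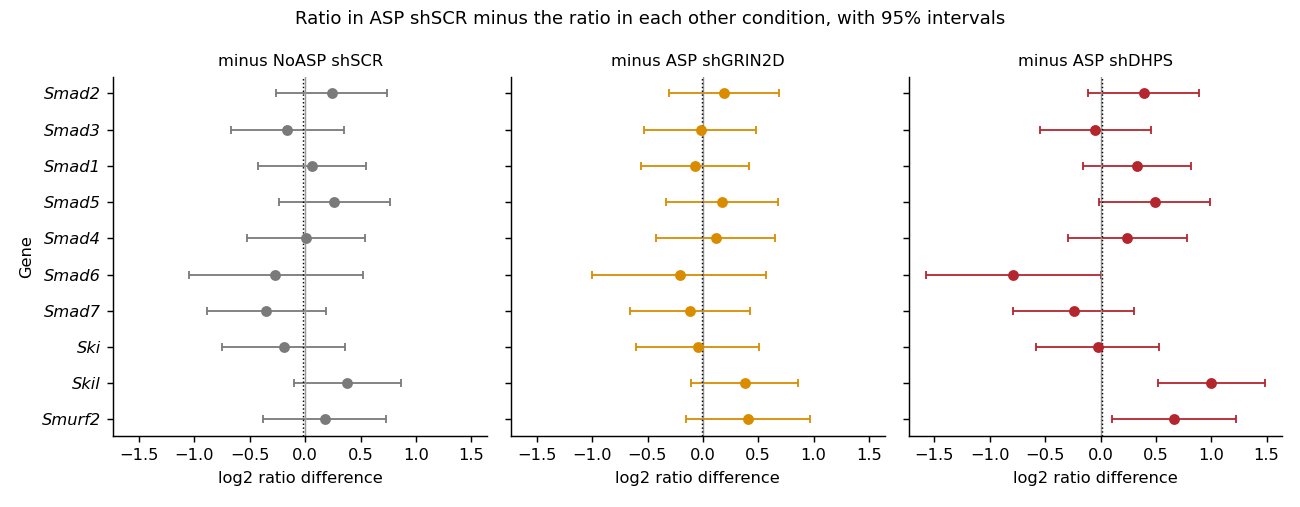
Log2 ratio in ASP shSCR minus the log2 ratio in NoASP shSCR, ASP shGRIN2D or ASP shDHPS (x axis) for each member. Points are edgeR estimates, bars are 95% intervals, and the dotted line is the median of all 17757 genes. The interval of Skil against ASP shDHPS runs from 0.52 to 1.49 and that of Smurf2 from 0.1 to 1.22, and the intervals of the other members in that comparison reach or cross 0.

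**Figure D4:**
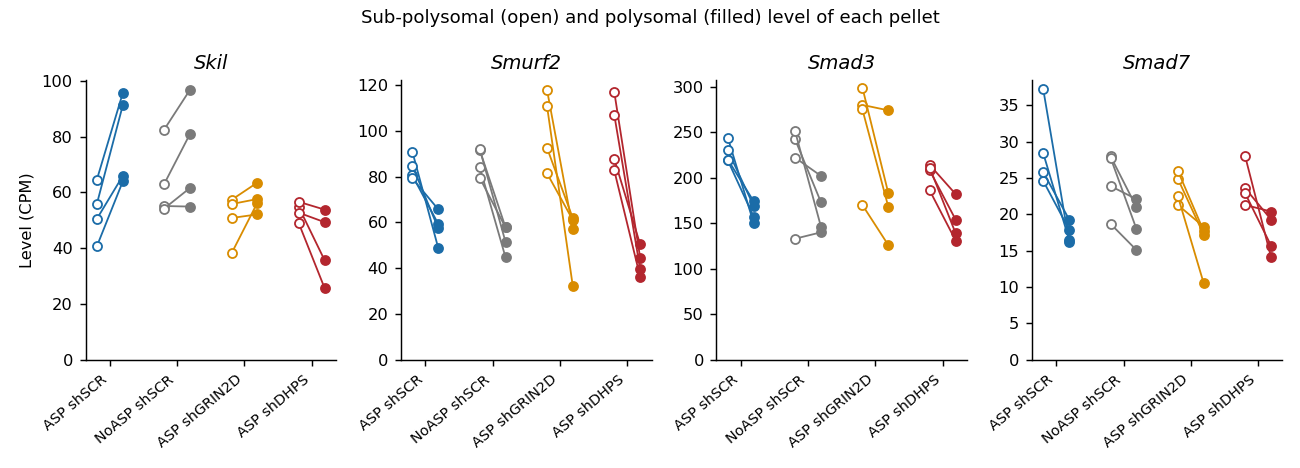
Sub-polysomal (open) and polysomal (filled) level in CPM of Skil, Smurf2, Smad3 and Smad7 in every pellet, with a line joining the fractions of a pellet and 4 pellets per condition. Polysomal Skil is 63.9 to 95.6 CPM in ASP shSCR and 25.6 to 53.8 CPM in ASP shDHPS.

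Levels within each fraction were tested next, each fraction scaled and fitted on its own. With bulk RNA, fewer cells that express a gene and less RNA per cell cannot be told apart. In the sub-polysomal fraction, 0 of 10 members passed by edgeR in NoASP shSCR, ASP shGRIN2D or ASP shDHPS, where 0%, 0.315% and 1.41% of all genes did, and DESeq2 called none. With an unadjusted p under 0.05 there were 0, 1 and 1 members, against 4.91%, 11% and 16% of all genes. The 1 in ASP shGRIN2D was Smad5, with a difference of 0.34 (SE 0.15, edgeR adjusted p = 0.418), and the 1 in ASP shDHPS was Smad1. Sub-polysomal Smad1 was 48.9, 50.4, 50.1 and 48.6 CPM in ASP shDHPS and 41.1, 29.3, 35.1 and 37.9 CPM in ASP shSCR. The groups did not overlap, and the difference was 0.46 (SE 0.16, edgeR adjusted p = 0.146). Sub-polysomal Smad3 was 214, 208, 186 and 211 CPM in ASP shDHPS, also without overlap with the 219 to 244 CPM of ASP shSCR, with a difference of -0.16 (SE 0.18, 95% interval -0.53 to 0.21). Those were 2 of 10 members, against 9.29% of all genes. In ASP shGRIN2D no member was without overlap, against 5.47%.

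In the polysomal fraction, 0 of 10 members passed by edgeR in the same 3 comparisons, where 0%, 0.0169% and 0.169% of all genes did. DESeq2 called 0, 0 and 1 members, the 1 being Skil in ASP shDHPS. The share of all genes that DESeq2 called is not given, so this count has no background beside it. With an unadjusted p under 0.05 there were 0, 1 (Skil) and 2 (Skil and Smurf2), against 7.75%, 9.06% and 16.4% of all genes. Polysomal Smad3 was 182, 154, 131 and 139 CPM in ASP shDHPS and 150, 169, 174 and 157 CPM in ASP shSCR, and the groups overlapped.

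The third question is how activating, inhibitory and repressor genes compared. Their ratios were averaged per class in each pellet, and these class means are descriptions of few genes. In ASP shSCR, the repressors stood at 0.17 ± 0.12 (SD, n = 4), the activating SMADs at -0.26 ± 0.12, the ligase at -0.54 ± 0.26 and the inhibitory SMADs at -0.69 ± 0.48. The repressor mean joins 2 genes that stood apart in ASP shSCR, with Skil at 0.58 and Ski at -0.24, level with the activating SMADs. The repressor mean was above the activating mean in 14 of 16 pellets, and so was Skil alone, while Ski alone was above it in 11 of 16 and in 2 of the 4 pellets of ASP shSCR. The activating mean was above Smurf2 in 16 of 16. The activating and inhibitory classes had no fixed order, with the activating mean higher in 8 of 16 pellets.

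The order of the classes was not the same in every condition. The repressor mean was 0.07 ± 0.07 in NoASP shSCR, 0 ± 0.38 in ASP shGRIN2D and -0.32 ± 0.29 in ASP shDHPS. The activating mean was -0.34 ± 0.36, -0.33 ± 0.22 and -0.53 ± 0.08 in the same order, and Smurf2 was -0.72 ± 0.2, -0.96 ± 0.62 and -1.2 ± 0.29. The inhibitory mean was -0.37 ± 0.09, -0.52 ± 0.13 and -0.17 ± 0.22. In ASP shDHPS it averages a Smad6 ratio of 0.13, from few counts, with a Smad7 ratio of -0.47, and in ASP shSCR its pellets stood at -1.2 (replicate 1), -0.98, -0.4 and -0.18. The activating mean was -0.4, -0.1, -0.28 and -0.24 in the pellets of ASP shSCR and -0.54, -0.42, -0.62 and -0.56 in those of ASP shDHPS. The nearest of these pellets, -0.4 and -0.42, nearly met. The repressor mean ran from 0.03 to 0.32 in ASP shSCR and from -0.71 to -0.05 in ASP shDHPS, and of its 2 genes Skil differed by 1 between these conditions and Ski by -0.02, with overlapping pellets.

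**Figure D5:**
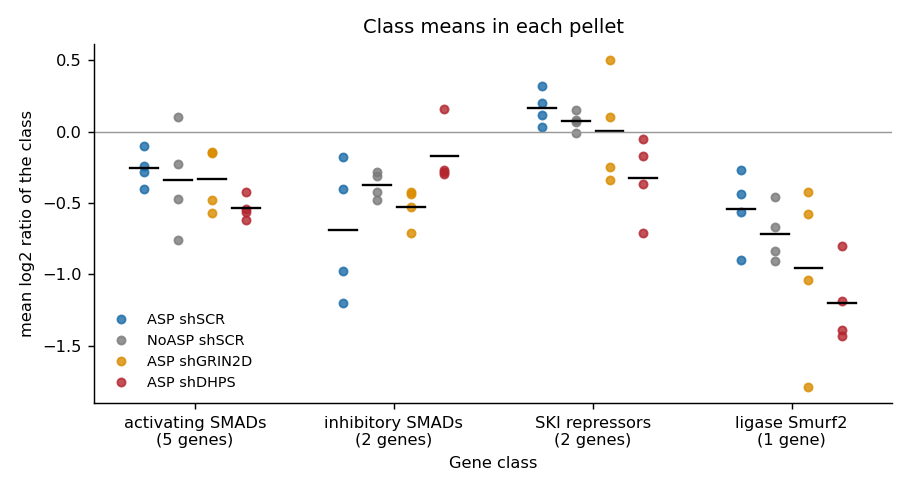
Mean log2 ratio of each class (y axis) in each pellet, coloured by condition, with the mean of 4 pellets as a bar. The mean of the repressor class is 0.17 in ASP shSCR and -0.32 in ASP shDHPS, and the inhibitory pellets of ASP shSCR spread from -1.2 to -0.18.

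Within classes the members were not interchangeable. Skil had a higher ratio than Ski in all 4 pellets of ASP shSCR, NoASP shSCR and ASP shGRIN2D but in 1 of 4 of ASP shDHPS. The Skil minus Ski difference was 0.82 ± 0.33 (SD, n = 4) in ASP shSCR, 0.24 ± 0.24 in NoASP shSCR, 0.4 ± 0.33 in ASP shGRIN2D and -0.21 ± 0.62 in ASP shDHPS. Among the activating SMADs, Smad2 and Smad1 were above Smad4 in 16 of 16 pellets each, and Smad2 was above Smad3 in 13 of 16. Skil was above the ligase Smurf2 in 16 of 16 pellets, by 0.99 ± 0.37 on average. Smad7 was above Smad6 in 6 of 16, and in none of the 4 pellets of ASP shDHPS.

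The principal transcripts of the members differed in length. That of Skil has 6717 bases, with 725 before the coding sequence and 7 upstream ATG triplets, and that of Ski 5522 bases with 72 before it and none. Smad6 and Smad7 have 1035 and 1427 bases before the coding sequence, with 10 and 6 upstream ATGs, against 0 in Smad2 and Smad3, 1 in Smad4 and Smurf2, 2 in Smad1 and 3 in Smad5. The median over all genes with a principal transcript is 175 bases, and 51.2% have at least 1 ATG there.

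Genes with the most similar pattern over the 16 pellet ratios were named for 3 members, among 11045 other genes that had 10 counts or more in each library. For Skil they were Cul5 (Pearson r = 0.96), Trps1 (0.94) and Gas2l3 (0.94). For Smad3 they were Snx9 (0.89), Zfp395 (0.86) and Patl1 (0.85), and for Smad7 Prrc2b (0.9), Dlg5 (0.89) and Irf2bpl (0.89). The pellets share their libraries and sequencing depth with every gene compared, and the values are given as descriptions.

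The genes around the SMADs were followed in 6 lists, the ligands, receptors, SMAD regulators, nuclear partners, TGF-β targets and BMP targets, with 82 of 96 genes counted. Between ratios, 0 of 82 passed by edgeR in any of the 3 comparisons with ASP shSCR. With an unadjusted p under 0.05 there were 2 in NoASP shSCR, 1 in ASP shGRIN2D and 18 in ASP shDHPS, which is 2.44%, 1.22% and 22% of the 82, against 1.93%, 3.22% and 13.6% of all genes. Median differences against ASP shDHPS were 0.39 for 12 receptors, 0.3 for 21 SMAD regulators, 0.29 for 20 nuclear partners and -0.33 for 14 TGF-β targets, against 0.01 for all genes. For 9 ligands and 6 BMP targets they were 0.02 and 0.07. In ASP shDHPS minus ASP shGRIN2D, 14 of the 82 had an unadjusted p under 0.05 (17.1%, against 6.41% of all genes). None of them passed by edgeR, and no list gene is named for that comparison.

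The SMAD regulator closest to the threshold was Itch, a WW-domain ubiquitin ligase related to Smurf2. Its ratio was 0.831 ± 0.268 (SD, n = 4) in ASP shSCR and -0.226 ± 0.254 in ASP shDHPS, without overlap (difference 1.06, SE 0.25, edgeR adjusted p = 0.054). Among nuclear partners it was Arid4b, a subunit of the SIN3 corepressor complex (1.16, SE 0.3, edgeR adjusted p = 0.0813), and among receptors Acvr2a, an activin receptor (1.03, SE 0.28, edgeR adjusted p = 0.0903). The activin subunit gene Inhba gave 0.93 (SE 0.32, edgeR adjusted p = 0.174). The smallest p among the targets went the other way, with -0.74 (SE 0.28, edgeR adjusted p = 0.239) for Snai1, a repressor of epithelial genes, and -0.65 (SE 0.28, edgeR adjusted p = 0.305) for the BMP target Id3. Pellets of the conditions overlapped for Acvr2a, Inhba, Snai1 and Id3, and not for Arid4b. Of all genes 6.86% were without overlap, and the genes named here were picked by their p.

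Without added aspartate the smallest p of each list belonged to Inhbb, a ligand subunit (-0.66, SE 0.32), Acvr2a (0.35, SE 0.28), the phosphatase gene Ppm1a (0.84, SE 0.37), the stress-induced transcription factor gene Atf3 (0.91, SE 0.39), the matrix gene Ltbp2 (-0.42, SE 0.28) and the BMP antagonist gene Nog. Each had an edgeR adjusted p of 1, and Ppm1a and Atf3 varied widely among the ASP shSCR pellets (SD 1.16 and 1.01, n = 4). With Grin2d silenced they were Inhbb (-0.5, SE 0.32), the BMP receptor gene Bmpr1a (0.4, SE 0.28), Ppm1a (0.98, SE 0.37), Atf3 (0.68, SE 0.39), the matrix gene Tgfbi (-0.84, SE 0.48) and Nog, again each with an edgeR adjusted p of 1. Nog had 0 to 16 counts per library, with 5 of 32 libraries at 0, and gave no usable ratio. The other receptor-activated SMAD gene, Smad9, had 0 to 6 counts per library and gave no usable ratio. Smurf1, the other SMURF ligase gene, had log2 ratios of -2.13 to -0.95, below 0 in 16 of 16 pellets, and a difference of -0.15 (SE 0.27, edgeR adjusted p = 0.859) against ASP shDHPS.

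By level, 5 of the 82 genes passed, all in ASP shDHPS. In the sub-polysomal fraction 2 rose and 2 fell, where 1.41% of all genes passed, and in the polysomal fraction 1 fell, where 0.169% did. Atf3, whose product partners SMAD3, rose from 8.74 ± 0.773 to 20.3 ± 2.11 CPM (log2 difference 1.21, SE 0.24, edgeR adjusted p = 0.00773), and Ccn1, a secreted matrix protein gene and TGF-β target, rose from 18.3 ± 3.15 to 44.2 ± 5.97 CPM (1.27, SE 0.23, edgeR adjusted p = 0.00335). Tgif2, a SMAD corepressor gene, fell from 38.7 ± 4.57 to 22.4 ± 4.64 CPM (-0.79, SE 0.17, edgeR adjusted p = 0.0116), and Pmepa1, a feedback inhibitor that binds SMADs, fell from 202 ± 67.2 to 109 ± 20 CPM (-0.9, SE 0.22, edgeR adjusted p = 0.0312). The groups did not overlap for any of the 4, nor for 9.29% of all genes. These 4 were named because they passed the threshold, so the lack of overlap is no separate evidence. In the polysomal fraction Inhba fell from 17.6 ± 6.46 to 6.59 ± 1.69 CPM (-1.45, SE 0.26, edgeR adjusted p = 0.0333).

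Of these 5, Atf3 and Ccn1 kept their calls whichever pellet was left out. Tgif2 lost its call without ASP shSCR replicate 2 (adjusted p = 0.0507) or ASP shDHPS replicate 3 (adjusted p = 0.0669) or 4 (adjusted p = 0.0719). Pmepa1 lost it without ASP shSCR replicate 1 (adjusted p = 0.0607) or 2 (adjusted p = 0.195) or ASP shDHPS replicate 2 (adjusted p = 0.0611), 3 (adjusted p = 0.12) or 4 (adjusted p = 0.0963), in edgeR fits of the rest. Inhba lost it without ASP shSCR replicate 2 (adjusted p = 0.0648) or 4 (adjusted p = 0.0813) or any one of the 4 ASP shDHPS pellets (adjusted p = 0.0525 to 0.259).

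Lists without a call in ASP shDHPS gave these genes with the smallest p. Sub-polysomal Tgfb1, the gene of the main TGF-β ligand, was 245 ± 17.7 CPM against 312 ± 49 in ASP shSCR (log2 difference -0.35, SE 0.15, edgeR adjusted p = 0.257), and sub-polysomal Acvr2a was 17.6 ± 1.24 against 11.1 ± 4.87 CPM (0.66, SE 0.22, edgeR adjusted p = 0.119). Polysomal Wwp1, another WW-domain ligase gene, was 17.7 ± 6.97 against 38.7 ± 5.85 CPM (-1.21, SE 0.31, edgeR adjusted p = 0.099). Polysomal Bmpr1a was 40.2 ± 7.53 against 61.6 ± 8.32 CPM (-0.68, SE 0.24, edgeR adjusted p = 0.165), and polysomal Ncor1, a corepressor gene, was 61.4 ± 4.46 against 92.4 ± 20.8 CPM (-0.64, SE 0.18, edgeR adjusted p = 0.113). Polysomal Gadd45b, a TGF-β target gene, was 38.7 ± 4.18 against 24.6 ± 3.13 CPM (0.6, SE 0.19, edgeR adjusted p = 0.135). The BMP target genes with the smallest p, Nog (1.52, SE 0.95, sub-polysomal) and Hey1 (-2.47, SE 1.08, polysomal), lay below 1 CPM on average in both conditions. The groups overlapped for Acvr2a, Nog and Hey1 and did not for Tgfb1, Wwp1, Bmpr1a, Ncor1 and Gadd45b. Of all genes, 9.29% were without overlap in the sub-polysomal and 5.25% in the polysomal fraction. Because these genes were picked by their p in the same comparison, a lack of overlap is no separate evidence.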

How the data were processed

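Per the labels and the study's methods, the authors trimmed reads with Trim Galore 0.6.6, mapped them to GRCm39 with STAR 2.6.1, quantified genes with Salmon 1.4.0, rounded the estimates and deposited them as raw counts without normalization, after removing genes without expression in at least 3 of the 4 replicates of every group. Deposited tables of the authors' own fold changes, p-values and gene set scores were not used.

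Counts were tested with edgeR 4.0.16 in R 4.3.3 (two-sided quasi-likelihood F-tests after TMM scaling of the 32 libraries), with a term per pellet and a polysomal to sub-polysomal ratio per condition, after the design in the study's methods. Levels were tested in the 16 libraries of a fraction. P-values were adjusted by Benjamini-Hochberg over 17757 genes, with a threshold of 0.05. Ratios of single pellets were taken after adding a prior count of 2, and levels are printed in CPM scaled over all libraries, so that a fold of printed levels can differ slightly from a fitted one. Only the test of ratio differences was run on simulated counts, with changes larger than those of any member and no differences between pellets. The tests of levels were not simulated, and the simulation does not show how often changes of the members' size are found.

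The members and lists were chosen with earlier results of these data known. Beyond the members, the text names Dhps, Grin2d, Smad9 and Smurf1. From each list and comparison with ASP shSCR it names up to 3 genes per direction past the threshold, or otherwise the 1 with the smallest p. For the levels, of the genes that did not pass only 8 of ASP shDHPS are printed. Alternatives were DESeq2 1.42.0 (size factors, Wald test), a minimum of 10 counts in every library, no pellet term, a replicate term, the 2 conditions alone, each pellet left out and, chosen after seeing the data, the longest transcript for levels per kilobase. Transcripts and sequences came from GENCODE M21 (GRCm38), which held a principal coding transcript for 75.2% of the genes. At 12870563 to 25639437 counts per library, members had standard errors of 0.24 to 0.38 (log2) for a ratio difference. No 2 libraries were duplicates (highest correlation of log2 CPM 0.9885).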

Additional observations from a re-analysis of the deposited data

Results flagged for a closer look

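Skil had a ratio on either side of 0 in different conditions: its log2 ratio lay above 0 in every pellet of ASP shSCR and of ASP shGRIN2D and below 0 in every pellet of ASP shDHPS. In ASP shGRIN2D the ratio did not pass the threshold (0.2, edgeR adjusted p = 0.373), 2 pellets lay at 0.04 and 0.05, and the place of 0 depends on the scaling, with a mean of 0.12 when genes needed 10 counts or more in each library, so that the direction there is uncertain. Without ASP shGRIN2D replicate 1, which stood at 0.56, the ratio in that condition was 0.06. In ASP shDHPS 2 pellets lay at -0.1 and -0.07, close to the median ratio of all genes there (-0.09). Its ratio there was -0.43 (edgeR adjusted p = 0.0416), and -0.26 (edgeR adjusted p = 0.298) without ASP shDHPS replicate 3. The share of all genes with such a split between conditions is not given. The mean ratio was higher than in ASP shDHPS by 1 in ASP shSCR and by 0.63 in ASP shGRIN2D. The differences were tested in the model across all genes, with edgeR adjusted p of 0.0568 and 0.578.

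A single pellet far from the other 3 of its condition was found in 6 of 120 groups of 4, and 6 are expected by chance at 1 in 20. Sub-polysomal Smad5 was 66.9 CPM in NoASP shSCR replicate 3 (others 94.8 to 99.5) and 121 CPM in ASP shDHPS replicate 1 (others 87.3 to 88.8). Sub-polysomal Smad4 was 63.2 CPM in ASP shGRIN2D replicate 2 (others 92.4 to 97.3), and sub-polysomal Ski was 105 CPM in ASP shDHPS replicate 4 (others 81.8 to 82.2). Polysomal Smad7 was 10.5 CPM in ASP shGRIN2D replicate 2 (others 17.2 to 18.3), and polysomal Smurf2 was 32 CPM in ASP shGRIN2D replicate 4 (others 57.2 to 61.8).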

How the results depend on the processing

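The count of members past the threshold stayed at 0 under every alternative for the ratio differences against NoASP shSCR and ASP shGRIN2D, for ASP shDHPS minus ASP shGRIN2D, and for the levels of NoASP shSCR and ASP shGRIN2D. Against ASP shDHPS it was 0 and became 1 (Skil) with at least 10 counts in every library, with DESeq2's Wald test, and over the pellets left out ranged from 0 to 1. Shares of all genes are given for the main edgeR fit only, and none stands beside the counts under the alternatives. For the polysomal level in ASP shDHPS it was 0 and became 1 (Skil) with DESeq2's Wald test, and over the pellets left out it ranged from 0 to 1. Within conditions, 5 members in ASP shSCR became 3 to 5 over the pellets left out, 3 in NoASP shSCR became 1 to 3, and 6 in ASP shDHPS became 3 to 5. In NoASP shSCR 5 were called with DESeq2 size factors and 5 with its Wald test. Over the alternatives that keep all pellets the count ran from 4 to 6 in ASP shSCR, from 3 to 5 in ASP shGRIN2D and from 5 to 7 in ASP shDHPS. Without the pellet term, edgeR calls ended for Smad3 in ASP shSCR (adjusted p = 0.0587), ASP shGRIN2D (0.0776) and ASP shDHPS (0.0872) and for Skil in ASP shDHPS (0.156). The cause was not tested.

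Nothing in the labels says that a replicate number marks something shared between conditions, so the main fit took the pellets as unpaired. Not every same-numbered pair correlated positively, which by itself does not exclude pairing. Ratio deviations of same-numbered pellets correlated with a median of 0.166 (24 pairs, -0.27 to 0.672), against -0.05 for different numbers (72 pairs). Of 16 pellets, 8 correlated best with their own number, and the count expected without pairing is not given. Library positions on the axis between the fractions also went partly with the number. Replicate 4 had the highest sub-polysomal library in every condition (0.0415 to 0.138), in ASP shDHPS barely (0.138 against 0.136). Replicate 2 had the lowest polysomal library (0.758 to 0.892), except in ASP shSCR, where replicate 1 lay lower (0.372 against 0.777). These values are a hint of pairing from the data and not from the design, and its source was not tested. With the replicate block, the members called became 1 for the ratio against ASP shDHPS (Skil, difference 1, edgeR adjusted p = 0.0304), 1 for the sub-polysomal level in ASP shDHPS (Smad1, 0.48, adjusted p = 0.0449) and 1 for the polysomal level (Skil, -1.02, adjusted p = 0.0115). The share of all genes called with this block is not given, so these counts have no background beside them.

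Changes of direction concerned differences smaller than their standard error. Ski against ASP shDHPS was 0.02 with at least 10 counts, 0.02 with the 2 conditions alone and -0.17 to 0.14 over the pellets left out. Sub-polysomal Skil in ASP shDHPS was -0.01 with DESeq2 size factors, -0.01 with at least 10 counts, -0.01 with the Wald test and -0.11 to 0.12 over the pellets left out, and in ASP shGRIN2D -0.19 to 0.05. Over the pellets left out, Smad3 against ASP shDHPS ranged from -0.1 to 0.02, Smad6 against ASP shGRIN2D from -0.46 to 0.06, polysomal Smad6 in NoASP shSCR from -0.05 to 0.3 and polysomal Ski in ASP shGRIN2D from -0.1 to 0.41. The pellet counts of the class comparison were 14, 8 and 16 with a prior count of 0.5 and 13, 7 and 15 of the remaining pellets without ASP shSCR replicate 1.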
